A study of Mus musculus with 12 samples.

Results

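The genes described here are 46 antiviral effectors and interferon regulators of the mouse, followed through normal retina and damaged retinal explants of 129 and B6 mice. They were chosen by name, and the rule uses no measured value. A probe set, called a probe here, was counted as a member's when the annotation of the array gave it that gene symbol alone. By this rule 43 of the 46 genes were measured, by 69 of the 45037 probes tested, while the whole array covered 18193 genes. Isg15 was present only on a probe shared with other symbols, and no probe carried the symbol Oas1g or Ifi44 alone, so these 3 genes are given no level. Each of the 18 genes with several probes is represented by its strongest probe, judged by the mean of all 12 arrays, and some of the other probes are described where their calls differ.

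RNA of retinal tissue was hybridized to 12 Affymetrix oligonucleotide arrays, 2 for each of 6 conditions. The groups of the 129 strain (129X1/SvJJmsSlc) were normal retina, explants cultured for 3 days (3DIV) with vehicle, and explants cultured for 3 days with 15 µM CHIR99021, a small molecule inhibitor of the kinase GSK3, and the same 3 groups were made from the B6 strain (C57BL/6NCrSlc). All mice were 10 weeks old and, by the methods of the study, male, no engineered allele is named for either strain, and by the same methods explant cultures of the study received the nucleoside EdU, with DMSO as the vehicle of the inhibitor. An explant is a retina cut off from its blood supply, optic nerve and pigmented epithelium, so that damage and culture cannot be told apart. Both arrays of a condition are labelled as biological replicates, but whether their retinas came from the same animal is not stated, and p-values then measure only the spread between these arrays.

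Interferons are secreted proteins through which cells that sense viral or misplaced nucleic acid warn their neighbours. Type I interferons bind a receptor of the chains IFNAR1 and IFNAR2, and type II interferon binds IFNGR1 and IFNGR2; both act through JAK kinases and STAT proteins. A complex that holds STAT2 and IRF9 binds the interferon-stimulated response element (ISRE), while the gamma-activated site (GAS) serves type II interferon, and the genes switched on through these elements encode RNA-binding, RNA-degrading and membrane proteins that block viral growth. In the retina such genes are known to be induced after injury and infection, in glia and in neurons.

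Upstream sequences are shown first, because many of the genes below moved together. They are of 4 strongly induced members with a match to an ISRE core and of 2 members that serve as contrasts. RefSeq start sites (GRCm38.p6) were found for 37 of the 46 genes, and the 250 bases before each start were searched on both strands for GAAA, any 2 bases and GAAA again, taken as an ISRE core, and for TTCNNNGAA, taken as a GAS, which reads the same on both strands. Matches of the ISRE core may overlap each other. The core was found in 10 of the 42 promoters of these genes (23.8%), compared with 2.98% of all 32851 promoters, and the GAS in 7 of 42 (16.7%), compared with 7.02%. The 10 promoters were those of Ifit1, Ifit3, Isg15, Oas1a, Oas1g, Oas3, Rsad2, Bst2, Ifitm2 and Stat2. The sequences run from 5′ to 3′ along the gene's strand and end at the base before the start, with each ISRE core in capitals.
Ifit1: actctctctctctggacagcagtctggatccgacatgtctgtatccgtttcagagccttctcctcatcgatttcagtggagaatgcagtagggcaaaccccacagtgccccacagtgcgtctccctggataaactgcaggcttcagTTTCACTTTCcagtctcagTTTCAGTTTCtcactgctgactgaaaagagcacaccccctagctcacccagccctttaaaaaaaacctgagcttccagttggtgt
Ifit3: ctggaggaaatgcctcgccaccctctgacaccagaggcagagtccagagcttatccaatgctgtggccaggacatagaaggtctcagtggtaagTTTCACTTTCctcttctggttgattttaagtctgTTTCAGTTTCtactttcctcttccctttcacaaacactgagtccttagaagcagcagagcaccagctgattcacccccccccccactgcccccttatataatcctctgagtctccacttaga
Rsad2: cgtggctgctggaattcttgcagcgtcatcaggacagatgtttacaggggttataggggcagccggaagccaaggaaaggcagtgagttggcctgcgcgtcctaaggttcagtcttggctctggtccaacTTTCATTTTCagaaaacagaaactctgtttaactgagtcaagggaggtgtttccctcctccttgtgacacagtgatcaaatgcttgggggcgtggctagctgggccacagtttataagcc
Bst2: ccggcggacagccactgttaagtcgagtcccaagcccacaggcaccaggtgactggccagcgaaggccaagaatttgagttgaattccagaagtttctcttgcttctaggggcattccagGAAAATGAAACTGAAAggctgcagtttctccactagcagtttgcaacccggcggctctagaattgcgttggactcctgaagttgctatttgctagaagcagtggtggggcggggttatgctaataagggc
Oas3: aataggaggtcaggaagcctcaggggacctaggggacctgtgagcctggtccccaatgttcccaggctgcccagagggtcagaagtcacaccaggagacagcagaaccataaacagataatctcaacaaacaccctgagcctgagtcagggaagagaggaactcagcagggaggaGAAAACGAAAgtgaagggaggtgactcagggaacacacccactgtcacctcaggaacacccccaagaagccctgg
Oasl2: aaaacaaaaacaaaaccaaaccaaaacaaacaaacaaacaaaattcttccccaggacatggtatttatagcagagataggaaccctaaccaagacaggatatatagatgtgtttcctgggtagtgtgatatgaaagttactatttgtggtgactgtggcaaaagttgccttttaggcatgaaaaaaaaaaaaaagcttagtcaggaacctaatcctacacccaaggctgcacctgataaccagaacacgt
Ifit1 (chr19:34640639-34640888 on the plus strand) and Ifit3 (chr19:34583279-34583528 on the plus strand) each held 2 cores, of which the nearer ended 75 bases before the start in Ifit1 and 112 bases before it in Ifit3. Rsad2 (chr12:26456453-26456702 on the minus strand) held 1 core, and Bst2 (chr8:71537473-71537722 on the minus strand) held 2 that overlap. Oas3 (chr5:120777660-120777909 on the minus strand) held a core 65 bases before its start, yet it is among the members whose level hardly varied below. Oasl2 (chr5:114896684-114896933 on the plus strand), whose strain difference in normal retina was the largest among the members, held none in this window. Yet Oasl2 was itself strongly induced after damage, by 6.02 in 129 and by 3.78 in B6. Ifit2, Ifih1, Irf7, Irf9, Dtx3l and Parp12, which also rose in both strains, held no core in this window either. A match describes the letters, and no binding was measured.

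All levels are log2 of the intensity given by RMA, and all differences are on that log2 scale, with the standard error (SE) of the limma fit; a gene was called higher or lower at an adjusted p under 0.05. The median intensity of an array lay between 68.8 and 70.7, and the arrays of a group correlated at 0.9965 to 0.9978 over all probes. Over the 43 genes, the median gap between both arrays of a group lay between 0.10 and 0.20, and the widest was 1.74 for Ifitm1 in B6 explants with CHIR99021. That retina was present was borne out by 4 rod markers, which summed to intensities of 51584 and 52572 in 129 normal retina and 50765 and 51266 in B6 normal retina. Markers of lens summed to intensities of 877 and 24416 on both arrays of 129 normal retina and to 129 to 173 on all other arrays. Those of pigmented epithelium summed to 4086 and 10332 in 129 normal retina, 9016 and 10987 in B6 normal retina and 107 to 206 in explants. The normal arrays thus held signal from outside the neural retina. Each comparison of explants with normal retina also sets arrays with little signal of pigmented epithelium against arrays with much. The part of this difference was not tested.

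The genes of the list rose together after damage in both strains. At 3DIV 36 of 43 were higher than in normal retina in 129 and 37 in B6, and none was lower. Of all genes 19.1% were higher and 17.0% lower in 129, and 19.3% were higher and 16.9% lower in B6. The median change of the 43 genes was 2.55 in 129 and 2.13 in B6, whereas that of all genes was -0.014 in 129 and -0.0021 in B6. The measured level of Ifit1 was 78.8-fold that of normal retina in 129 and 24.4-fold in B6. Ifit1 encodes a protein that binds foreign RNA at its 5′ end. Rtp4, a chaperone of receptors that also restrains viral replication, was at 76.8-fold in 129 and 25.8-fold in B6. The normal levels of Ifit1 and Rtp4 lay below the median of all probes, 6.14, in both strains, so that the sizes of these folds rest on dim signals. As whole retina was measured, fewer cells of a type and less RNA per cell cannot be told apart. Microglial markers moved with this rise: of 17 listed genes 13 rose in 129 and 15 in B6, and their summed intensity was 3339 and 3467 in 129 explants against 1382 and 1421 in 129 normal retina, and 7830 and 8474 in B6 explants against 2010 and 2134 in B6 normal retina. Other markers moved too, with 4 of 4 of rods, 3 of 3 of cones and 4 of 4 of ganglion cells lower in both strains, and cone markers at a median of -4.07 in 129 and -4.59 in B6. Those of pigmented epithelium fell, as given above. The summed intensity of 6 vessel markers was 3821 and 3990 in 129 explants against 1957 and 2035 in 129 normal retina. In B6 it was 3786 and 4062 in explants against 1987 and 2038 in normal retina. Not every vessel marker rose, and Tek fell in both strains. The part of these cell types in the result was not tested. Markers of T cells did not rise, with 0 of 5 called higher in either strain. With replicate 1 or replicate 2 of 129 normal retina left out, 36 or 35 genes were higher in 129; both arrays had raised lens markers.

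**Figure D1:**
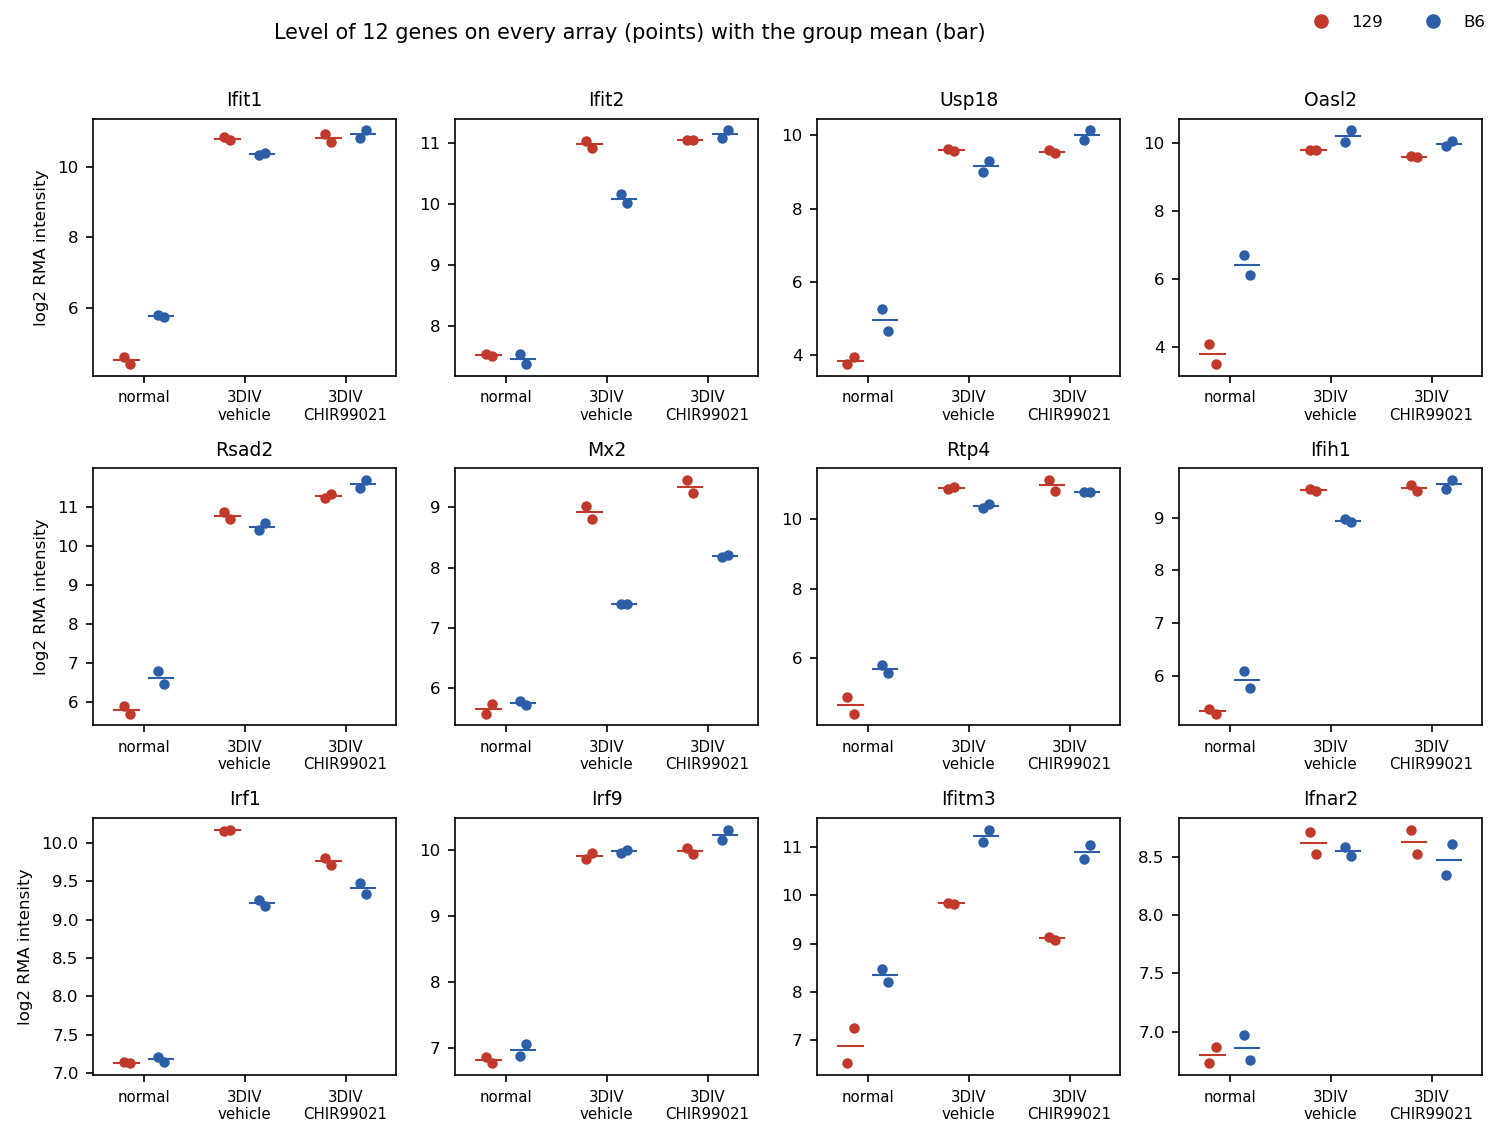
Level (y axis, log2 RMA intensity) of 12 genes in normal retina, explants at 3DIV with vehicle and explants with CHIR99021 (x axis), with 129 in red on the left and B6 in blue on the right. Points are arrays and bars are means of 2 arrays; Ifit1 lies near 4.5 in 129 normal retina and near 10.8 in 129 explants, below B6 in normal retina and above it at 3DIV.

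The strains differed in the size of this rise. The change after damage in 129 minus that in B6, tested as an interaction, was higher for 15 of 43 genes and lower for none, against 1.74% of all genes higher and 1.32% lower, and its median was 0.18, while that of all genes was -0.0025. The difference was largest for Oasl2 at 2.23 (SE 0.29, adjusted p = 0.00396), an OAS-like protein, followed by Ifit1 at 1.69 (SE 0.15, adjusted p = 3.89e-04), Mx2 at 1.62 (SE 0.14, adjusted p = 3.27e-04) and Rtp4 at 1.57 (SE 0.21, adjusted p = 0.0045). These genes lay below the median of all probes, 6.14, in 129 normal retina, so that these sizes rest on dim signals. Oasl2 was lower in 129 than in B6 at 3DIV too, so its larger change came with a lower level before culture. The other 11 were Usp18, Ifit3, Ifih1, Rsad2, Irf1, Dtx3l, Parp14, Ifit2, Parp9, Parp12 and Tlr3, at 0.75 to 1.55. Of these, Usp18, Ifih1, Rsad2, Dtx3l, Parp14 and Tlr3 also lay below 6.14 in 129 normal retina, with the same limit on their sizes. The count was 9 without replicate 1 of the B6 explants, and 15 without replicate 1 and 14 without replicate 2 of 129 normal retina, both of which had raised lens markers. Microglial markers went the other way, with 0 of 17 higher and 5 lower in the same interaction (median -0.44).

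Before culture most of the called genes were lower in 129. In normal retina 13 of 43 genes were lower in 129 than in B6 and 1, Ifngr2, was higher, against 5.83% of all genes lower and 5.41% higher, and the median difference was -0.16, with -0.01 for all genes. The lower genes were Oasl2, Ifitm3, Ifit1, Usp18, Rtp4, Rsad2, Lgals3bp, Ifit3, Ifih1, Parp12, Bst2 and, by their strongest probe, Xaf1 and Irf3, each of which had another probe called higher. Microglial markers were also lower in 129 normal retina, 9 of 17 by the test, with summed intensities of 1382 and 1421 in 129 against 2010 and 2134 in B6, and their part was not tested. The count of lower genes was 11 without replicate 1 and 14 without replicate 2 of 129 normal retina, and the call of Ifngr2 was lost in both cases.

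At 3DIV the balance was the opposite. In explants 14 genes were higher in 129 than in B6 and 5 were lower, against 10.8% of all genes higher and 10.2% lower, with a median of 0.08 and -0.01 for all genes. The 14 were Mx2, Irf1, Ifit2, Parp14, Parp9, Ifit3, Ifih1, Dtx3l, Ifngr2, Tlr3, Rtp4, Ddx58, Ifit1 and Eif2ak2, and the 5 were Ifitm3, Lgals3bp, Ifitm2 and, by their strongest probe, Xaf1 and Irf3, each of which had another probe called higher. Without replicate 1 of the 129 explants 8 were higher and 4 lower. In these arrays 15 of the 17 microglial markers were lower in 129 and 0 higher, with summed intensities of 3339 and 3467 in 129 explants against 7830 and 8474 in B6 explants. The comparisons in normal retina and at 3DIV use the arrays of the interaction after damage, so that their counts are not independent of it.

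**Figure D2:**
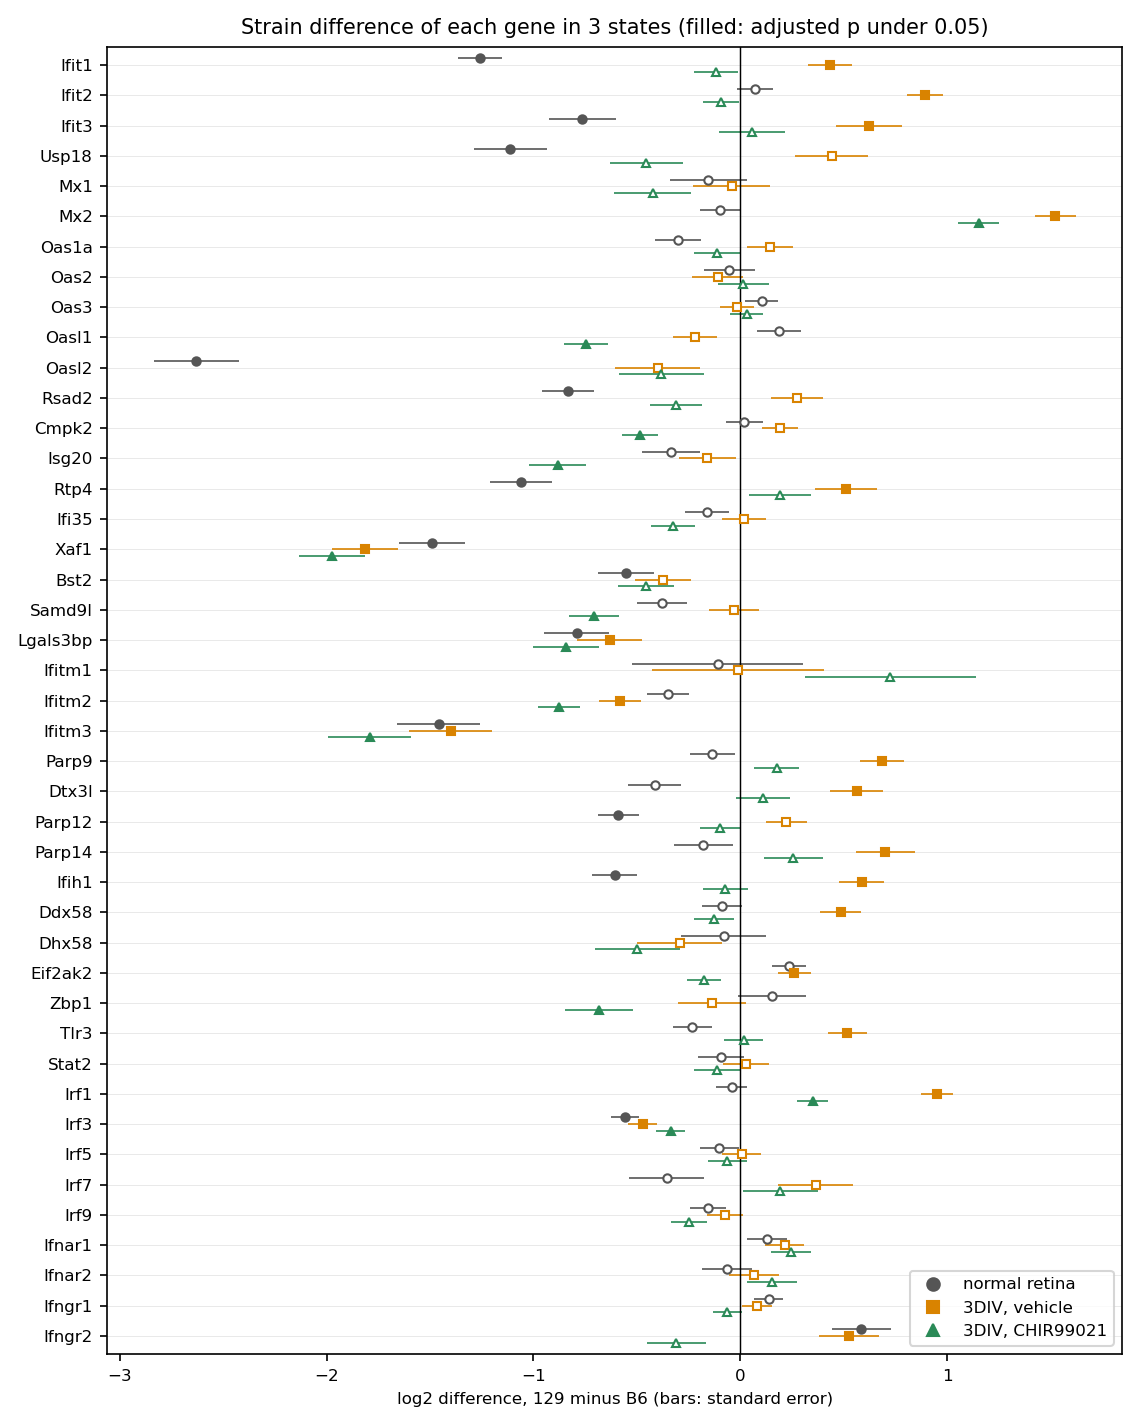
Difference of 129 minus B6 (x axis, log2) of the 43 measured genes (y axis) in normal retina (circles), explants at 3DIV with vehicle (squares) and explants with CHIR99021 (triangles), with the standard error as a bar and filled symbols where the adjusted p was under 0.05. Ifit1, Ifit3, Rtp4 and Ifih1 lie left of 0 in normal retina and right of it at 3DIV, and Ifitm3 lies left of 0 throughout.

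The 4 measured genes of the IFIT and ISG15 system gave 4 of the 15 interactions called after damage. IFIT1, IFIT2 and IFIT3 bind viral RNA and form complexes with each other, and USP18 removes ISG15 from proteins and dampens signalling at the type I receptor. Ifit1 had levels of 4.60 and 4.39 in 129 normal retina, against 5.78 and 5.73 in B6 normal retina. At 3DIV its levels were 10.85 and 10.75 in 129 explants, against 10.34 and 10.40 in B6 explants. With CHIR99021 they were 10.92 and 10.69 in 129 and 10.81 and 11.03 in B6. The 129 arrays thus lay below B6 before culture and above it at 3DIV, and the strains overlapped with the inhibitor. The difference was -1.26 in normal retina (SE 0.11, adjusted p = 2.65e-05) and 0.43 at 3DIV (SE 0.11, adjusted p = 0.016); the call at 3DIV was lost when any of the 4 arrays compared was left out (adjusted p up to 0.0987).

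Usp18 behaved like Ifit1 in normal retina, with 3.76 and 3.94 in 129 against 5.27 and 4.65 in B6. Its explants had 9.62 and 9.57 in 129 against 9.01 and 9.30 in B6, without overlap. This gave a difference of -1.11 in normal retina (SE 0.18, adjusted p = 0.00194), one of 0.44 at 3DIV that missed the limit (SE 0.18, adjusted p = 0.106) and an interaction of 1.55 (SE 0.25, adjusted p = 0.0113). Ifit3 had 6.49 and 7.07 in 129 normal retina against 7.65 and 7.44 in B6 normal retina, and 11.94 and 11.81 in 129 explants against 11.16 and 11.35 in B6 explants. Here too the order of the strains turned between the states, with an interaction of 1.38 (SE 0.23, adjusted p = 0.0128). The interaction of Ifit3 was lost without replicate 1 of the B6 explants or of the 129 explants (adjusted p up to 0.0516), and its difference in normal retina, -0.76, ranged from -1.05 to -0.47 when single arrays were left out and was lost without replicate 1 of either strain (adjusted p up to 0.0789). Its call at 3DIV was lost without replicate 1 of the B6 explants or either of the 129 explants (adjusted p up to 0.126).

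Ifit2 showed no such difference before culture. Its levels were 7.54 and 7.51 in 129 normal retina and 7.54 and 7.37 in B6 normal retina. After damage they were 11.04 and 10.92 in 129 explants and 10.16 and 10.01 in B6 explants. The inhibitor left 129 explants at 11.05 and 11.05 and brought B6 explants to 11.08 and 11.21. Only the B6 explants with vehicle therefore stood apart from the other cultured groups. The difference at 3DIV was 0.89 (SE 0.09, adjusted p = 5.93e-05).

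The RNA levels of Mx1 and Mx2, which code for GTPases of the dynamin family, differed from each other in pattern, and protein was not measured. Mx2 had 5.58 and 5.74 in 129 normal retina against 5.79 and 5.72 in B6 normal retina. In explants it had 9.03 and 8.81 in 129 against 7.40 and 7.39 in B6. With CHIR99021 it had 9.45 and 9.24 in 129 against 8.18 and 8.21 in B6. The strains overlapped before culture and were far apart in both kinds of explant, by 1.52 with vehicle (SE 0.10, adjusted p = 3.81e-06) and by 1.15 with CHIR99021 (SE 0.10, adjusted p = 2.98e-05). Mx1, at a lower level, rose by 1.47 in 129 (SE 0.19, adjusted p = 1.20e-04) and by 1.36 in B6 (SE 0.19, adjusted p = 2.29e-04), with an interaction of 0.11 (SE 0.26, adjusted p = 0.881).

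Of the OAS group, whose enzymes make a nucleotide signal that activates an RNA-degrading nuclease, 3 of 5 measured genes rose in each strain and Oas2 and Oas3 did not pass. Oasl2 had 4.09 and 3.50 in 129 normal retina against 6.71 and 6.13 in B6 normal retina. In explants it had 9.80 and 9.81 in 129 against 10.04 and 10.38 in B6. It was therefore lower on every 129 array than on every B6 array of the same state, but the gap was -2.63 in normal retina (SE 0.21, adjusted p = 1.45e-05) and -0.40 at 3DIV, where it missed the limit (SE 0.21, adjusted p = 0.213). Oas1a, an OAS enzyme, rose by 1.91 in 129 and by 1.47 in B6 (SE 0.11 each). Oasl1, which restrains the translation of Irf7 mRNA in mice, rose by 0.38 in 129 and by 0.78 in B6 (SE 0.11 each); in 129 the change ranged from 0.23 to 0.53 with single arrays left out, and the call was lost without replicate 2 of normal retina or replicate 1 of the explants (adjusted p up to 0.185). Oas3 stayed between 5.01 and 5.27 over all 12 arrays and Oas2 between 5.56 and 6.10, both below the median level of all probes, 6.14.

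Among the other effectors, all 9 measured genes rose in both strains, by 1.26 to 6.26 in 129 and by 1.08 to 4.69 in B6. Rtp4 had 4.87 and 4.39 in 129 normal retina against 5.81 and 5.57 in B6 normal retina, and 10.86 and 10.92 in 129 explants against 10.32 and 10.44 in B6 explants. The strains did not overlap in either state and stood in opposite order, at -1.06 in normal retina (SE 0.15, adjusted p = 9.62e-04) and 0.51 at 3DIV (SE 0.15, adjusted p = 0.0351). The call at 3DIV was lost without any of the 4 arrays compared (adjusted p up to 0.163), and the weaker probe of Rtp4, 1449143_at, gave an interaction of 0.21 (SE 0.17, adjusted p = 0.565).

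Rsad2, known as viperin, an enzyme that makes a chain-terminating nucleotide, had 5.89 and 5.70 in 129 normal retina against 6.79 and 6.47 in B6 normal retina. In explants it had 10.87 and 10.69 in 129 against 10.42 and 10.59 in B6. With CHIR99021 it had 11.24 and 11.34 in 129 against 11.50 and 11.70 in B6. On this strongest probe no state showed an overlap of the strains. The difference passed in normal retina, at -0.83 (SE 0.13, adjusted p = 0.00146), while the interaction after damage was 1.11 (SE 0.18, adjusted p = 0.0116). The other probes of Rsad2, 1421009_at and 1421008_at, gave interactions of 1.21 and 0.88, both called. But 1421008_at was not lower in 129 normal retina, with 5.32 and 5.31 against 5.08 and 5.17 in B6 normal retina. In explants it had 8.65 and 8.77 in 129 against 7.51 and 7.79 in B6. At 3DIV 1 probe of Rsad2 was called for the strain difference, and it was not the strongest. Cmpk2, a mitochondrial nucleotide kinase whose gene lies beside Rsad2, rose by 2.07 in 129 and by 1.90 in B6 (SE 0.09 each), with an interaction of 0.17 (SE 0.12, adjusted p = 0.521). The weaker probe of Cmpk2, 1422095_a_at, rose by 0.83 in 129 and gave 0.12 in B6, which did not pass (adjusted p = 0.555).

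Bst2, known as tetherin, which holds budding virus at the cell surface, had 5.75 and 5.68 in 129 normal retina against 6.49 and 6.04 in B6 normal retina, and 9.39 and 9.19 in 129 explants against 9.63 and 9.69 in B6 explants. It was lower on the 129 arrays in both states, by -0.55 in normal retina (SE 0.14, adjusted p = 0.0243), a value that ranged from -0.78 to -0.32 with single arrays left out and was lost without replicate 1 of B6 or either 129 array (adjusted p up to 0.143). The difference at 3DIV was -0.37 (SE 0.14, adjusted p = 0.0813). Lgals3bp, a secreted binding partner of galectin 3 measured by 1 probe, was lower in 129 in all 3 states, by -0.79 in normal retina (SE 0.16, adjusted p = 0.00822), -0.63 at 3DIV (adjusted p = 0.0175) and -0.84 with CHIR99021 (adjusted p = 0.00578). Each of these calls was lost without 1 or more single arrays, among them replicate 1 of B6 and of 129 in normal retina (adjusted p up to 0.0689), replicate 2 of B6 and both of 129 at 3DIV (up to 0.137) and replicate 2 of B6 with CHIR99021 (0.0554). Isg20, an RNA exonuclease, Ifi35, a partner of NMI, and Samd9l, an inhibitor of translation, had interactions after damage of 0.18, 0.18 and 0.35, none of which passed.

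Of the genes of the IFITM proteins, membrane proteins that hinder the entry of viruses, Ifitm3 was called lower in 129 in all 3 states, Ifitm2 in 2 of them and Ifitm1 in none. Ifitm3 had 6.52 and 7.24 in 129 normal retina against 8.48 and 8.20 in B6 normal retina. In explants it had 9.85 and 9.82 in 129 against 11.10 and 11.36 in B6. With CHIR99021 it had 9.15 and 9.07 in 129 against 10.75 and 11.05 in B6. All 129 arrays lay below the B6 arrays of the same state, by -1.46 in normal retina (SE 0.20, adjusted p = 7.43e-04), -1.40 at 3DIV (adjusted p = 6.88e-04) and -1.79 with CHIR99021 (adjusted p = 1.81e-04). Each IFITM gene was measured by 1 probe, so no other probe could be set beside these strain differences. From normal retina to 3DIV Ifitm3 rose by 2.95 in 129 and by 2.89 in B6, and the interaction was 0.06 (SE 0.28, adjusted p = 0.947). Ifitm2 was lower in 129 at 3DIV by -0.58 (SE 0.10, adjusted p = 0.0026) and with CHIR99021 by -0.88 (SE 0.10, adjusted p = 2.68e-04). The strains overlapped for Ifitm1 in normal retina, with 6.24 and 6.35 in 129 against 6.68 and 6.13 in B6, and also at 3DIV. Ifitm1 had 9.20 and 7.46 in B6 explants with CHIR99021, the widest gap of any group, against 9.60 and 9.63 in B6 explants with vehicle, and its difference with the inhibitor in B6 missed the limit (-1.29, SE 0.41, adjusted p = 0.0533).

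The 4 genes of PARP9, DTX3L, PARP12 and PARP14 all rose more in 129. PARP9 and DTX3L form a complex that modifies chromatin and viral proteins, and PARP12 and PARP14 attach ADP-ribose to proteins. Dtx3l had 5.65 and 5.24 in 129 normal retina against 6.01 and 5.71 in B6 normal retina, and 9.34 and 9.36 in 129 explants against 8.76 and 8.81 in B6 explants. The strains did not overlap in either state and changed order. Its interaction was 0.98 (SE 0.18, adjusted p = 0.0219), and those of Parp14, Parp9 and Parp12 were 0.88, 0.82 and 0.81 (adjusted p = 0.049, 0.0216 and 0.0147). These calls were close to the limit: those of Dtx3l and Parp9 were lost without any of 5 single arrays, among them all 4 explant arrays with vehicle (adjusted p up to 0.0857), that of Parp12 without replicate 1 of the B6 explants or replicate 2 of the 129 explants (up to 0.0646), and that of Parp14 without any of 10 arrays (up to 0.138). The weaker probe of Parp14, 1432548_at, gave -0.06 in the same test (SE 0.18, adjusted p = 0.919). In the explants themselves Parp14, Parp9 and Dtx3l were higher in 129 by 0.70, 0.69 and 0.56, of which the last was lost without replicate 1 of the B6 explants or either of the 129 explants (adjusted p up to 0.0646).

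Of the sensors of foreign nucleic acid, all 6 rose in both strains. Ifih1, which encodes the long double-stranded RNA sensor MDA5, had 5.36 and 5.28 in 129 normal retina against 6.10 and 5.76 in B6 normal retina. In explants it had 9.55 and 9.52 in 129 against 8.98 and 8.92 in B6. With CHIR99021 it had 9.62 and 9.51 in 129 against 9.55 and 9.72 in B6. The order of the strains turned between normal retina and 3DIV, and the strains overlapped in explants with the inhibitor. The difference was -0.61 in normal retina (SE 0.11, adjusted p = 0.00424) and 0.59 at 3DIV (SE 0.11, adjusted p = 0.00343), with an interaction of 1.19 (SE 0.15, adjusted p = 0.00367).

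Ddx58, which encodes the RNA sensor RIG-I, was higher in 129 at 3DIV by 0.49 (SE 0.10, adjusted p = 0.00546), and its interaction of 0.57 missed the limit (SE 0.14, adjusted p = 0.0578). Tlr3, an endosomal receptor of double-stranded RNA, was higher in 129 at 3DIV by 0.52 (SE 0.09, adjusted p = 0.00293), with an interaction of 0.75 (SE 0.13, adjusted p = 0.017) that was lost without any of 5 single arrays (adjusted p up to 0.0635). The weaker probe of Tlr3, 1422781_at, gave 0.48, which did not pass (SE 0.14, adjusted p = 0.114). Eif2ak2 encodes PKR, a kinase that stops translation on sensing double-stranded RNA, and its 3 probes disagreed. The strongest, 1422006_at, gave an interaction of 0.02 (SE 0.11, adjusted p = 0.944), whereas 1422005_at gave 1.16 (SE 0.17, adjusted p = 0.00813) and 1440866_at gave 1.40 (SE 0.21, adjusted p = 0.00806). The call of the strongest probe at 3DIV, at 0.26, was lost in 11 of the 12 fits that left out an array (adjusted p up to 0.245). Dhx58, a regulator of RIG-I and MDA5 also called LGP2, and Zbp1, a sensor of Z-form nucleic acid that can trigger cell death, had interactions of -0.21 and -0.29, and neither passed. The weaker probes of Dhx58 passed after damage in neither strain, and that of Zbp1 passed in 129 (0.84) but not in B6 (0.21).

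Of the transcription factors, Stat2, Irf1, Irf7 and Irf9 rose in both strains, and Irf3 and Irf5 passed in neither at the probe that stood for them. Irf1, a factor induced by type II interferon and by NF-kappaB, had 7.15 and 7.13 in 129 normal retina against 7.21 and 7.15 in B6 normal retina. In explants it had 10.16 and 10.17 in 129 against 9.25 and 9.18 in B6. With CHIR99021 it had 9.81 and 9.71 in 129 against 9.48 and 9.34 in B6. The strains overlapped before culture and were clearly separate after it, by 0.95 at 3DIV (SE 0.08, adjusted p = 1.58e-05), and the interaction was 0.99 (SE 0.11, adjusted p = 0.00131). With CHIR99021 the difference was 0.35 (SE 0.08, adjusted p = 0.013), and this call was lost without replicate 2 of B6 or replicate 1 of 129 (adjusted p up to 0.11).

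The genes of 2 partners of the ISRE-binding complex, Irf9 and Stat2, were not called in the interaction after damage. Irf9, its DNA-binding part, had 6.86 and 6.76 in 129 normal retina and 6.87 and 7.06 in B6 normal retina, and 9.87 and 9.95 in 129 explants and 9.96 and 10.00 in B6 explants. The 129 arrays lay just below the B6 arrays in both states, with differences of -0.16 and -0.07 that did not pass, and the interaction was 0.08 (SE 0.13, adjusted p = 0.801). Stat2 gave an interaction of 0.12 (SE 0.16, adjusted p = 0.76), and its weaker probe, 1450403_at, gave 0.33 (SE 0.20, adjusted p = 0.444). That probe was higher in 129 at 3DIV, with 7.32 and 7.47 in 129 explants against 6.82 and 6.85 in B6 explants (0.56, SE 0.14, adjusted p = 0.0176), where the stronger probe of Stat2 gave 0.03 (adjusted p = 0.897). Irf7, the factor that amplifies type I interferon production, rose by 3.64 in 129 and by 2.92 in B6, but its interaction of 0.72 missed the limit (SE 0.26, adjusted p = 0.179).

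Of the receptor chains, Ifnar2 rose by 1.82 in 129 and by 1.69 in B6 (SE 0.12 each), and Ifnar1 and Ifngr1, at the probe that stood for them, passed in neither strain. Ifnar2 had 8.71 and 8.52 in 129 explants against 6.73 and 6.87 in 129 normal retina, and 8.59 and 8.51 in B6 explants against 6.97 and 6.75 in B6 normal retina. Explants and normal retina were clearly separate, while the strains overlapped in both states. Ifngr2, the signalling chain of the type II receptor, had 7.61 and 7.45 in 129 normal retina against 7.00 and 6.88 in B6 normal retina, and 8.08 and 7.77 in 129 explants against 7.18 and 7.61 in B6 explants. It was higher on the 129 arrays in both states, by 0.59 in normal retina (SE 0.14, adjusted p = 0.0232) and 0.53 at 3DIV (SE 0.14, adjusted p = 0.0254). The first call was lost without any of the 4 arrays compared (adjusted p up to 0.141), the second ranged from 0.31 to 0.74 and was lost without replicate 1 of either strain (up to 0.191), and the weaker probe, 1423558_at, passed in neither. Its rise in B6 of 0.46 ranged from 0.24 to 0.67 with single arrays left out, and the call was lost without either normal array or replicate 2 of the explants (up to 0.259).

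**Figure D3:**
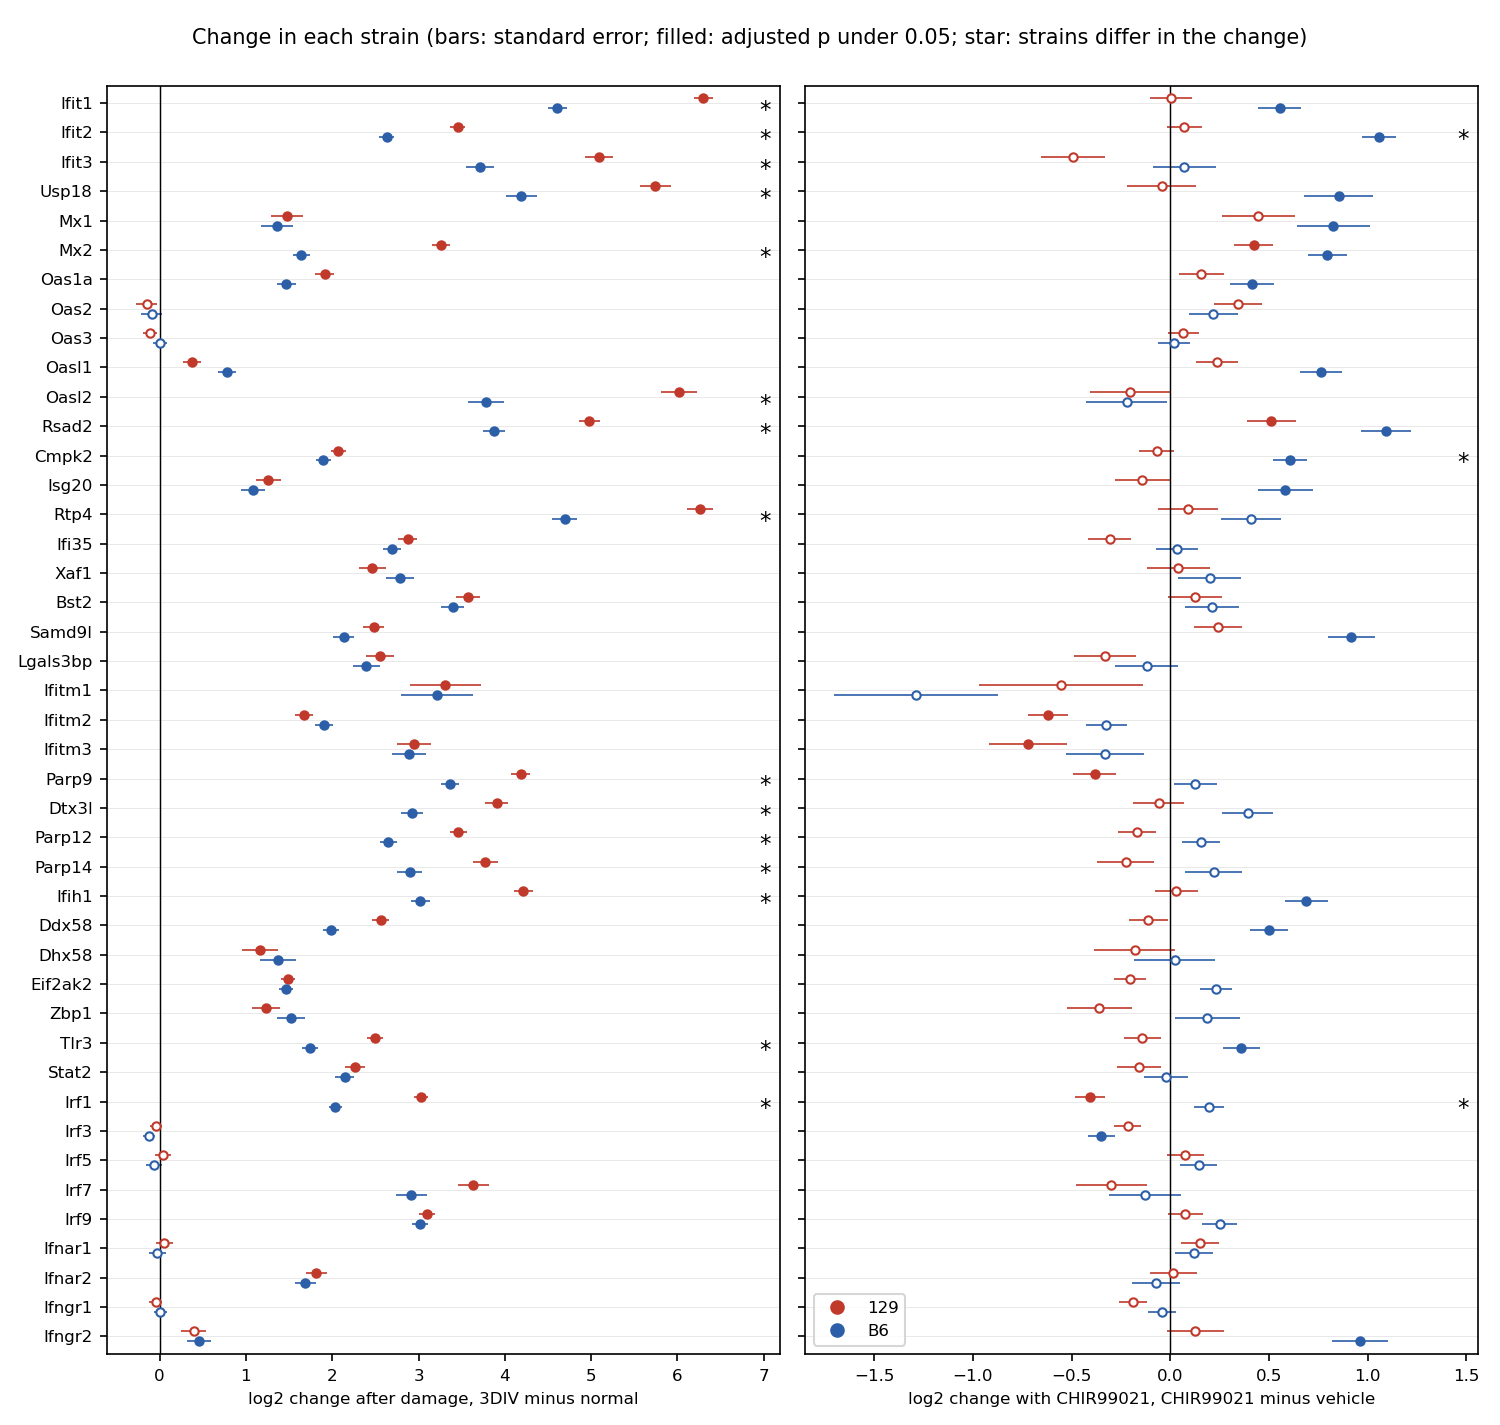
Change after damage (left, 3DIV minus normal, log2) and change with CHIR99021 (right, CHIR99021 minus vehicle at 3DIV, log2) of the 43 measured genes, with 129 in red above B6 in blue, the standard error as a bar and filled points where the adjusted p was under 0.05. A star marks genes whose change differed between the strains, 15 after damage, where 129 lies to the right of B6, and 3 with CHIR99021, where 129 lies to the left.

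With CHIR99021 few of these genes changed in 129, at shares near those of all genes, and more were higher in B6. In 129 explants 2 of 43 genes were higher with CHIR99021 than with vehicle and 4 were lower, against 7.28% of all genes higher and 7.86% lower. In B6 explants 15 were higher and 1, Irf3, was lower, against 8.59% of all genes higher and 12.5% lower. The median change was -0.07 in 129 and 0.21 in B6, and that of all genes was 0.01 in 129 and -0.01 in B6. In 129 the count of 6 was the most fragile, with 1 to 6 genes called when single arrays were left out: 3 without replicate 1 and 1 without replicate 2 of the explants with vehicle, and 2 without replicate 1 and 3 without replicate 2 of those with CHIR99021. Microglial markers fell in both strains, 10 of 17 in 129 (1 was higher) and 13 of 17 in B6, to summed intensities of 2177 and 2193 in 129 explants with CHIR99021 against 3339 and 3467 with vehicle, and of 3622 and 3839 in B6 explants with CHIR99021 against 7830 and 8474 with vehicle. Their part in these counts was not tested.

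The genes that rose in B6 spanned most roles. Rsad2 rose by 1.09 (SE 0.13, adjusted p = 2.64e-04), Ifit2 by 1.06 (SE 0.09, adjusted p = 4.11e-05), Ifngr2 by 0.96 (SE 0.14, adjusted p = 0.00124) and Samd9l by 0.92 (SE 0.12, adjusted p = 6.10e-04). The weaker probe of Ifngr2, 1423558_at, was not called, with 6.33 and 6.19 in B6 explants with CHIR99021 against 6.08 and 6.13 with vehicle. Samd9l had 7.97 and 8.09 in 129 explants with CHIR99021 against 7.79 and 7.78 with vehicle, and 8.52 and 8.94 in B6 explants with CHIR99021 against 7.76 and 7.87 with vehicle. The arrays with CHIR99021 lay above those with vehicle in both strains, but in 129 the change of 0.24 did not pass (SE 0.12, adjusted p = 0.238). The other 11, at 0.36 to 0.85, were Usp18, Mx1, Mx2, Oasl1, Ifih1, Cmpk2, Isg20, Ifit1, Ddx58, Oas1a and Tlr3. Calls of Usp18, Mx1, Oas1a, Isg20 and Tlr3 were lost without replicate 1 of the B6 explants with vehicle or replicate 2 of those with CHIR99021, and that of Tlr3 also without replicate 2 of those with vehicle (adjusted p up to 0.191), with Mx1 at 0.48 to 1.17 and Oas1a at 0.27 to 0.56 over the single omissions.

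In 129 the inhibitor raised Rsad2 by 0.51 (SE 0.13, adjusted p = 0.0237) and Mx2 by 0.42 (SE 0.10, adjusted p = 0.0194). It lowered Ifitm3, Ifitm2, Irf1 and Parp9, with changes of -0.72, -0.62, -0.41 and -0.38. Of these calls that of Ifitm2 (SE 0.10, adjusted p = 0.00332) held without each of the 12 arrays in turn. Those of Rsad2 and Ifitm3 were lost without any of the 4 arrays compared (adjusted p up to 0.16), that of Mx2 without replicate 2 with vehicle or replicate 1 with CHIR99021 (up to 0.154), that of Irf1 without replicate 2 of either (up to 0.0543), and that of Parp9 without any of 10 arrays (up to 0.196).

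The effect of CHIR99021 in 129 minus that in B6, tested as an interaction, was lower for 3 genes and higher for none, against 0.357% of all genes lower and 0.599% higher. The value was below 0 for 36 of 43 genes, with a median of -0.37 and 0.03 for all genes. The 3 genes were Ifit2 at -0.99 (SE 0.12, adjusted p = 0.00573), Cmpk2 at -0.68 (SE 0.12, adjusted p = 0.0271) and Irf1 at -0.60 (SE 0.11, adjusted p = 0.0246). Cmpk2 had 9.38 and 9.31 in 129 explants with CHIR99021 against 9.48 and 9.35 with vehicle, and 9.71 and 9.94 in B6 explants with CHIR99021 against 9.20 and 9.24 with vehicle. The arrays of 129 were thus close together while those of B6 were higher with the inhibitor. The calls of Cmpk2 and Irf1 were each lost without any of 7 single arrays (adjusted p up to 0.106), and the count of 3 was 1 without replicate 1 of the B6 explants with vehicle or without any 129 explant array, and 6 without either B6 normal array. A weaker probe of Rsad2, 1421008_at, was also called, at -1.43 (SE 0.13, adjusted p = 0.00198), whereas the strongest probe of Rsad2 gave -0.58 (SE 0.18, adjusted p = 0.161).

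With CHIR99021 present, 10 genes were lower in 129 explants than in B6 explants and 2, Mx2 and Irf1, were higher, against 5.02% of all genes lower and 7.32% higher (median -0.12, with 0.02 for all genes). The lower genes were Ifitm3, Isg20, Ifitm2, Lgals3bp, Oasl1, Samd9l, Zbp1, Cmpk2, Irf3 and, by its strongest probe, Xaf1, whose other probe was called higher. Isg20 had 6.28 and 6.22 in 129 against 6.97 and 7.29 in B6, and Oasl1 had 6.48 and 6.38 in 129 against 7.14 and 7.21 in B6. Neither overlapped, with differences of -0.88 (SE 0.14, adjusted p = 0.002) for Isg20 and -0.75 (SE 0.11, adjusted p = 0.00102) for Oasl1. The call of Zbp1 was lost without replicate 2 of B6 or either 129 array (adjusted p up to 0.161) and that of Irf3 without replicate 2 of either strain (up to 0.0606). The weaker probe of Zbp1, 1419604_at, was not called, with 5.62 and 5.72 in 129 against 5.57 and 5.77 in B6. Of the 17 microglial markers 12 were lower in 129 in these arrays, and the comparison shares its arrays with the tests of the inhibitor.

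For Xaf1 and Irf3 the probes pointed in opposite directions, so the strain difference of either gene has no settled direction, and the counts of lower genes hold them by their strongest probe. Xaf1 encodes an interferon-induced partner of the apoptosis inhibitor XIAP. Its probe 1443698_at had 8.27 and 7.83 in 129 explants against 9.74 and 9.99 in B6 explants, and its probe 1443621_at had 10.35 and 10.25 in 129 explants against 6.08 and 6.13 in B6 explants. The arrays of the strains were far apart on both probes, in opposite order, and the difference was -1.81 (SE 0.16, adjusted p = 3.02e-05) on the first and 4.19 (SE 0.17, adjusted p = 1.34e-07) on the second. Both probes rose after damage in both strains, by 2.47 in 129 and 2.79 in B6 on the first and by 3.32 in 129 and 1.15 in B6 on the second, and the interaction was -0.32 (SE 0.23, adjusted p = 0.512) on the first and 2.17 (SE 0.25, adjusted p = 0.00179) on the second.

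Irf3, the factor that switches on interferon genes when nucleic acid is sensed, had 4 probes. In normal retina 1426111_x_at, 1416898_a_at and 1435271_at were lower in 129, by -0.56, -0.47 and -1.24, and 1438721_a_at was higher by 0.56 (SE 0.10, adjusted p = 0.0035). At 3DIV the last was still higher in 129, by 0.47. Its levels were 7.46 and 7.50 in 129 normal retina against 6.81 and 7.04 in B6 normal retina. None of the 4 probes rose after damage, and 1435271_at fell by 0.33 in 129 and by 0.44 in B6. Probe names ending in _x_at or _s_at can bind transcripts of more than 1 gene.

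**Figure D4:**
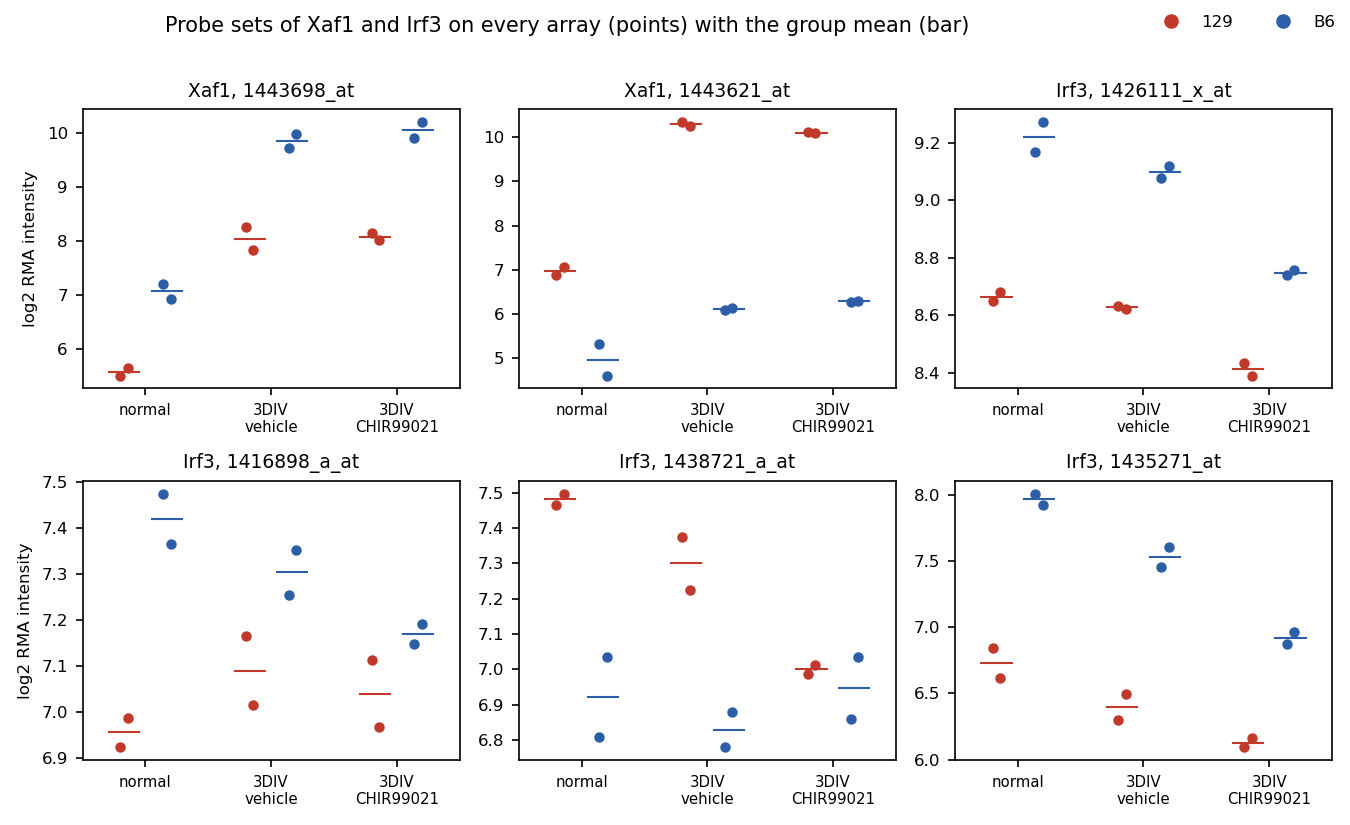
Level (y axis, log2 RMA intensity) of both probes of Xaf1 and of 4 probes of Irf3 in normal retina, explants at 3DIV with vehicle and explants with CHIR99021 (x axis), with 129 in red on the left and B6 in blue on the right; points are arrays and bars are means. The strains stand in opposite order on the first and second panels, near 8 in 129 and 10 in B6 on one probe of Xaf1 and near 10 in 129 and 6 in B6 on the other at 3DIV.

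The other genes of the interferon pathway were taken as a list of 56 genes, of which 49 were measured. After damage 24 were higher and 1 lower in 129, and 26 higher and 3 lower in B6, and in the interaction of strain and damage 7 were higher and 1 lower in 129, with median changes of 0.30 in 129 and 0.29 in B6 and a median interaction of 0.02. The shares of all genes given above apply here too. No rise of the interferon ligands was called: none of Ifnb1, 5 measured Ifna genes and Ifng was higher by the test after damage in either strain. All had mean levels between 2.98 and 5.69, below the median of all probes, 6.14, so that a rise could have been missed. Ifnb1 had 4.76 and 4.48 in 129 explants with CHIR99021 against 4.45 and 4.50 with vehicle, and 4.82 and 5.16 in B6 explants with CHIR99021 against 4.50 and 4.29 with vehicle. The change of Ifnb1 was 0.14 in 129, which did not pass (SE 0.13, adjusted p = 0.533), and 0.59 in B6 (SE 0.13, adjusted p = 0.0084), with an interaction of -0.45 that did not pass (adjusted p = 0.278).

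Il6, a cytokine that acts through STAT3, behaved differently from the ligands of interferon. It had 3.01 and 2.91 in 129 normal retina against 3.13 and 3.05 in B6 normal retina. In explants it had 5.76 and 5.33 in 129 against 3.92 and 4.35 in B6. With CHIR99021 it had 3.84 and 3.84 in 129 against 4.22 and 3.90 in B6. Among the explants only those of 129 with vehicle were set apart, while the B6 explants with vehicle also lay above B6 normal retina. Both interactions were called, at 1.53 after damage (SE 0.23, adjusted p = 0.00813) and at -1.63 with CHIR99021 (SE 0.23, adjusted p = 0.00952). All levels of Il6 lay below the median of all probes, 6.14, so that these sizes rest on dim signals. Socs1, an inhibitor of JAK kinases, had 7.07 and 6.89 in 129 explants against 6.47 and 6.38 in B6 explants, with an interaction after damage of 0.87 (SE 0.17, adjusted p = 0.0279). The 5 others higher in that interaction were Pml, which forms nuclear bodies, at 1.31, Psmb8 and Psmb9, subunits of the immunoproteasome, at 0.98 and 0.68, Samhd1, which depletes nucleotides, at 0.92, and Trim25, the ligase that activates RIG-I, at 0.76. The lower gene was Socs3, an inhibitor of STAT3 signalling, at -0.41 (SE 0.09, adjusted p = 0.0464).

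**Figure D5:**
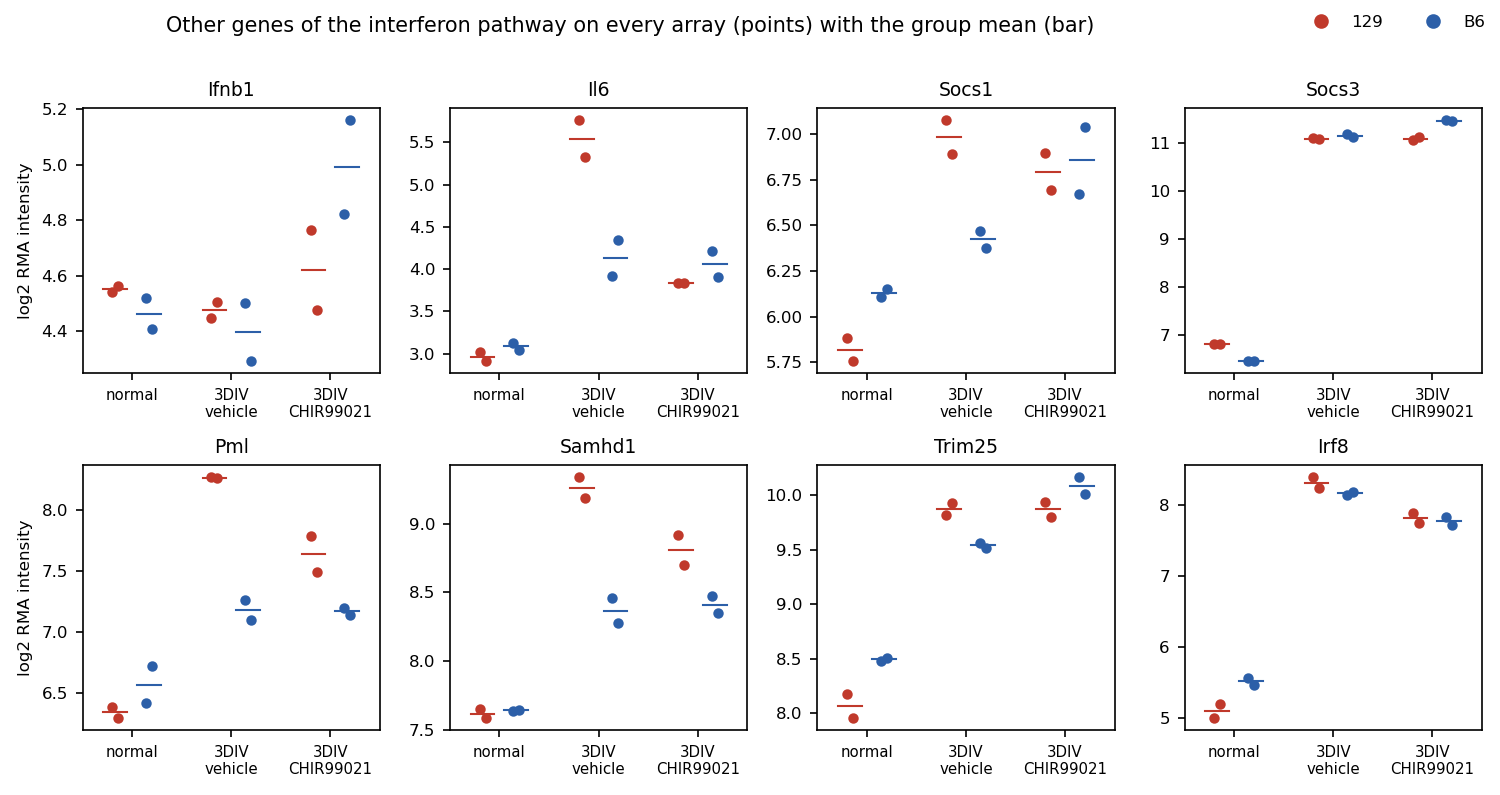
Level (y axis, log2 RMA intensity) of 8 other genes of the pathway in normal retina, explants at 3DIV with vehicle and explants with CHIR99021 (x axis), with 129 in red on the left and B6 in blue on the right; points are arrays and bars are means of 2 arrays. Ifnb1 stays between 4.29 and 4.56 without CHIR99021, and Il6 is highest in 129 explants with vehicle, at 5.33 and 5.76.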

How the data were processed

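Retinal tissue of 129 and B6 mice was measured on 12 arrays, 2 in each of 6 groups. The deposited values were intensities on a linear scale that the authors had obtained with RMA, which corrects background, brings all arrays to 1 distribution and summarizes each probe set, in a version not given in the sources used here. RMA narrows differences between arrays as a whole, and the number of arrays limits the precision. The median intensity of an array was 68.8 to 70.7.

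The log2 of the intensity was fitted with limma 3.58.1 in R 4.3.3, with 1 coefficient per condition and moderated variances (4.69 prior and 6 residual degrees of freedom). Of 45101 probe sets 64 controls were left out, and p-values were adjusted by the Benjamini-Hochberg method over the other 45037 within each of 9 comparisons, with a limit of 0.05. Gene symbols came from the platform annotation, which gave 34945 probe sets 1 symbol, 932 several and 9160 none. A gene was represented by the probe set of highest mean level. Every member could be named, other genes only from the lists of the pathway and of cell type markers, and other probe sets of a member for part of the genes whose probe sets gave different calls; those were chosen after their values were seen. Values on every array were given for members whose called strain difference or interaction was at least 1, and for members of each role. The members and gene lists were chosen with earlier results of these data known. Alternatives were a replicate block, a fit of only the arrays compared, a filter on dim probe sets, cyclic loess, a trended and robust variance, all probe sets of a gene, and leaving out each array. The fit was tested on simulated data. Promoters were RefSeq sequences of GRCm38.p6, searched with Python 3.11.15, and figures were drawn with matplotlib 3.10.9.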

Additional observations from a re-analysis of the deposited data

Results flagged for a closer look

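A total of 18 differences between the strains in the size of a change passed the test of the difference itself, each given as 129 minus B6 on the log2 scale by limma's interaction term. After damage Ifit1 (1.69), Mx2 (1.62), Rtp4 (1.57), Usp18 (1.55) and Oasl2 (2.23) differed by more than 1.5, and Ifit3 (1.38), Ifih1 (1.19) and Rsad2 (1.11) by more than 1. Irf1 (0.99), Dtx3l (0.98), Parp14 (0.88), Ifit2 (0.82), Parp9 (0.82), Parp12 (0.81) and Tlr3 (0.75) differed by less. Of these 15 genes, Ifit1, Ifit2, Usp18, Mx2, Oasl2, Rsad2, Rtp4, Ifih1 and Irf1 passed in all 12 fits that left out an array. With CHIR99021 the differences were -0.99 for Ifit2, -0.68 for Cmpk2 and -0.60 for Irf1, of which that of Ifit2 passed in all 12 such fits.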

How the results depend on the processing

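The count of members called after damage stayed between 35 and 37 in 129 and between 36 and 37 in B6 when single arrays were left out, and between 10 and 15 (14 in all) for the strains in normal retina. It ranged from 12 to 21 (19 in all) for the strains at 3DIV, from 8 to 15 (12 in all) with CHIR99021, from 9 to 16 (15 in all) for the interaction after damage, from 11 to 19 (16 in all) for CHIR99021 in B6, from 1 to 6 (6 in all) for CHIR99021 in 129 and from 1 to 6 (3 in all) for the interaction with CHIR99021. With dim probe sets filtered out the count for CHIR99021 in 129 was 10 and that of the interaction with CHIR99021 was 8; the count of that interaction was 5 with only the compared arrays and 9 with a trended and robust variance, and the cause was not tested. Taken as the median over all probe sets of a gene, the sign turned for Xaf1 (0.26 in normal retina, 1.19 at 3DIV, 0.92 with CHIR99021 and 0.93 in the interaction after damage), for Eif2ak2 in normal retina (-0.48), for Zbp1 at 3DIV (0.10), for Irf5 after damage in B6 (0.16) and with CHIR99021 in B6 (-0.15), for Ifnar1 after damage in 129 (-0.11) and for Stat2 with CHIR99021 in B6 (0.22). Over single genes 2187 of 2286 values under the alternatives kept their call, as did 4465 of 4644 with an array left out. Genes called in neither fit counted as kept whatever their sign, and the turned signs above leave them out. Replicate numbers did not pair the arrays (r of deviations from -0.107 to 0.044 over 15 pairs of groups), and with a replicate block the count was 18 in place of 19 at 3DIV, 17 in place of 16 for CHIR99021 in B6, 14 in place of 15 for the interaction after damage, and the same in the other 6 comparisons. With 2 arrays a group, a difference that missed the limit is not shown to be absent.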
